A study of Mus musculus with 6 samples.

Results

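The adrenergic receptors are G protein-coupled receptors for adrenaline and noradrenaline. The family falls into alpha-1 receptors, which couple mainly to Gq and phospholipase C, alpha-2 receptors, which couple to Gi and inhibit adenylyl cyclase, and beta receptors, which couple mainly to Gs and stimulate it. In the cardiovascular system they are known for the sympathetic control of heart rate, contractility and vessel tone. The 8 receptor genes described here are Adra1a, Adra1b, Adra1d, Adra2a, Adra2b, Adra2c, Adrb1 and Adrb3, out of 23107 genes counted. The family was chosen by the CPM of Adra2b, which was higher in every mutant library than in every control, so the difference of Adra2b between mutants and controls is given as a description, without a test.

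RNA-Seq was done on aortic valve tissue of outbred mice at 4 months of age, with 3 control and 3 mutant libraries. Mutants, labelled Acvr1:Nfatc1Cre, carried both the Cre-activatable transgene for constitutively active Acvr1 (caAcvr1), a BMP type I receptor, and the Nfatc1Cre knock-in. The Cre recombines in endocardium, in its derivatives and at the leaflet-wall junction, but the tissue sequenced was the dissected valve. Controls were labelled wild type, while the methods allow mice with either transgene alone or with neither and do not say which of these were sequenced. The methods call the samples of an assay independent but do not state whether mice were pooled, and errors and p-values measure the spread between these libraries.

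The controls held 46180667 to 55728852 fragments per library and the mutants 32218345 to 53129462. Levels are given as CPM, the counts scaled to a common library size after TMM normalization in edgeR. Acvr1 averaged 59.0 ± 9.21 CPM in controls against 54.7 ± 4.28 CPM in mutants (SD, n = 3 each), with overlapping groups, and the counts do not separate the transgene from the endogenous gene. Genes of valve interstitial cells were abundant, with Col1a1 from 1044 to 1642 CPM over all libraries, but cardiac muscle genes were abundant as well. Summed over 6 cardiomyocyte markers, the level ran from 9227 to 28824 CPM in the controls and from 13537 to 29082 CPM in the mutants. Control replicate 2 had the lowest level of 5 of these 6 markers and the highest level of 5 of 6 smooth muscle markers. In whole-tissue RNA, fewer cells of a type and less RNA per cell cannot be told apart.

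Adra2b lies on chromosome 2 (GRCm38, or mm10) from 127363208 to 127367221, on the plus strand, and its annotated transcripts have 1 exon. No annotated gene overlaps it. The sequence just before its start is shown beside those of Adrb1 and Adra1b, the most abundant beta and alpha-1 receptor genes here, because upstream sequences were found for 5 of the 8 receptor genes and these differ in base composition. Each is the 250 bases before the RefSeq start (GRCm38.p6), written 5′ to 3′ on the strand of the gene, at chr2:127362929-127363178 (plus strand) for Adra2b, chr19:56721867-56722116 (plus strand) for Adrb1 and chr11:43901238-43901487 (minus strand) for the upstream start of Adra1b. Capitals mark the GC box, GGGCGG on either strand.
Adra2b: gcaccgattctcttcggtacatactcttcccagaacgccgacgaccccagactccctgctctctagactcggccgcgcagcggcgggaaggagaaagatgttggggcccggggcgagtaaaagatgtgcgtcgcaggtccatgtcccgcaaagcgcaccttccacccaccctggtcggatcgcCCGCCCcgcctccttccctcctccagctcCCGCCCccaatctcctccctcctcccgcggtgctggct
Adrb1: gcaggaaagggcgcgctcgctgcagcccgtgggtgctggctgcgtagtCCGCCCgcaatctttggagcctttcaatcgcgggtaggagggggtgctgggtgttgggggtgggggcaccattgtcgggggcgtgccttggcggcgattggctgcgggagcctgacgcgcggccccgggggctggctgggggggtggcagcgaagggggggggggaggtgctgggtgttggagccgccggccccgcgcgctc
Adra1b: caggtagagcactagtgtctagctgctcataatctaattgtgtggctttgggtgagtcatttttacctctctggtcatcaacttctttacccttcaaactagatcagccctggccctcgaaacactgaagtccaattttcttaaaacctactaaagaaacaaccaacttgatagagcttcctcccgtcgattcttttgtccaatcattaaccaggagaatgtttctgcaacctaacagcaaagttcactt

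The Adra2b sequence held 23 CpG dinucleotides and 2 GC boxes, that of Adrb1 24 CpG dinucleotides and 1 GC box, and that of the upstream Adra1b start 3 CpG dinucleotides and no GC box. A second RefSeq start of Adra1b, not printed, had 22 CpG dinucleotides, 1 GC box and 1 GC-rich SMAD site (GGCGCC) in the 250 bases before it. The median over 32851 such sequences was 6 CpG dinucleotides, and 32.7% of them held a GC box. A TATA box (TATAAA, either strand), the short form of the cAMP response element (TGACG, either strand) and a GC-rich SMAD site (GGCGCC, its own reverse complement) were also searched, counting overlapping matches. These letters were present in 12.4%, 17.8% and 9.59% of the 32851 sequences. The Adra2b sequence held none of these 3, and that of Adrb1 held 1 short cAMP response element.

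Levels of the 8 genes differed widely within a valve. To compare genes with each other, CPM was divided by the length of all annotated exons of the gene in kilobases (CPM per kb). In the controls Adra1b stood highest at 9.43 ± 4.43 CPM per kb (SD, n = 3), and Adrb1, the main beta receptor of cardiac muscle, followed at 5.49 ± 2.28 CPM per kb (SD, n = 3). Adra2c, Adra1d, Adra2b and Adrb3 came next at 1.89 ± 0.644, 1.69 ± 1.25, 1.49 ± 0.161 and 1.14 ± 0.948 CPM per kb (SD, n = 3 each). Adra1a and Adra2a were lowest at 0.259 ± 0.206 and 0.248 ± 0.128 CPM per kb (SD, n = 3 each). Of neighbours in this order, only Adrb1 and Adra2c differed by more than the larger of their SDs. Adra1b ranked first in each of the 6 libraries, and Adrb1 ranked second in each except control replicate 2, where Adra1d took that place.

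In the mutants the order began in the same way, with Adra1b at 11.8 ± 4.73 CPM per kb and Adrb1 at 6.30 ± 1.30 CPM per kb (SD, n = 3 each). Adra2b followed at 3.94 ± 1.10 CPM per kb (SD, n = 3), ahead of Adra2c at 2.2 ± 1.28 CPM per kb (SD, n = 3), and this gap was larger than either SD. In mutant replicate 3 the order was the other way, with Adra2c at 3.46 and Adra2b at 2.98 CPM per kb. As a share of the summed CPM per kb of the 8 genes, Adra2b made up 5.38%, 9.61% and 6.69% in controls 1, 2 and 3. It made up 11.5%, 21.9% and 12.4% in mutants 1, 2 and 3, above every control. The share of Adra1b overlapped between the groups, at 27.9% to 49.4% in the controls and 35.2% to 53.7% in the mutants.

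**Figure D1:**
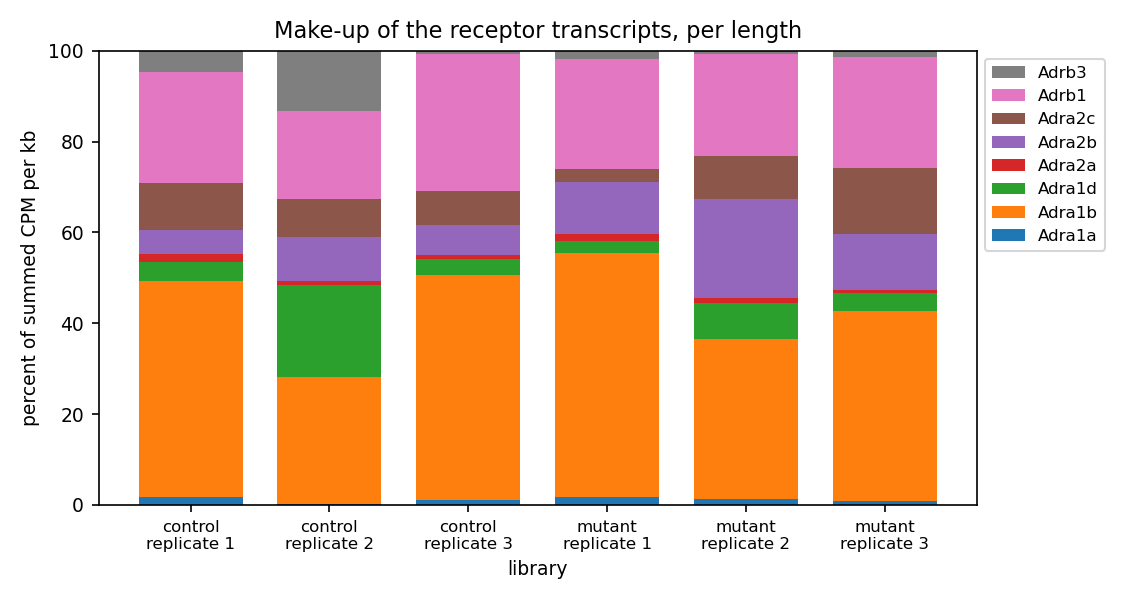
Stacked bars give the share of each receptor gene in the summed CPM per kb of the 8 genes (y axis, percent) in each library (x axis). Adra1b is the largest part of every bar, and the Adra2b part is 5.38% to 9.61% in the controls and 11.5% to 21.9% in the mutants.

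Adra2b, an alpha-2 receptor known for its part in the vasoconstrictor response to alpha-2 agonists, was read at 5.34, 5.97 and 6.63 CPM in controls 1, 2 and 3. In mutants 1, 2 and 3 it was read at 14.8, 20.6 and 12.0 CPM. The mutants all lay above the controls, and the controls lay close together, while the mutants were spread more widely. The counts behind these values ran from 286 to 816 per library. Controls averaged 5.98 ± 0.648 CPM and mutants 15.8 ± 4.42 CPM (SD, n = 3 each). On the log2 scale mutants exceeded controls by 1.40 (standard error, SE, 0.23), with extremes of 1.16 when mutant replicate 2 was left out and 1.57 when mutant replicate 3 was. Adding the mean log2 level of the cardiomyocyte markers to the model, which was decided on once the data had been seen, gave 1.42.

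The other alpha-2 receptor genes did not share this pattern. Adra2c was read at 8.86, 4.45 and 6.24 CPM in controls 1, 2 and 3 and at 3.09, 7.67 and 11.9 CPM in mutants 1, 2 and 3. Mutant replicate 1 had the lowest Adra2c level of all libraries and mutant replicate 3 the highest. For Adra2c the log2 fold change was 0.21 (95% interval -0.95 to 1.37, edgeR adjusted p = 0.999), and without mutant replicate 3 it was -0.28. Adra2a, the alpha-2 receptor best known from sympathetic nerve endings, was read at 1.90, 0.752 and 0.935 CPM in the controls and at 2.45, 1.04 and 0.628 CPM in the mutants, on 20 to 127 counts per library. Its log2 fold change was 0.21 (95% interval -1.24 to 1.66, edgeR adjusted p = 0.999), and -0.52 without mutant replicate 1. Within the alpha-2 receptors, Adra2b made up 30.9%, 50.7% and 45.2% of the summed CPM per kb in controls 1, 2 and 3, and 72.5%, 67.8% and 45.3% in mutants 1, 2 and 3. The groups overlapped in this share, and mutant replicate 3, in which Adra2c was also high, lay next to control replicate 3. The summed level of the 3 alpha-2 genes, of which Adra2b is one, was 3.63 ± 0.681 CPM per kb (SD, n = 3) in the controls and 6.42 ± 1.25 CPM per kb (SD, n = 3) in the mutants.

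**Figure D2:**
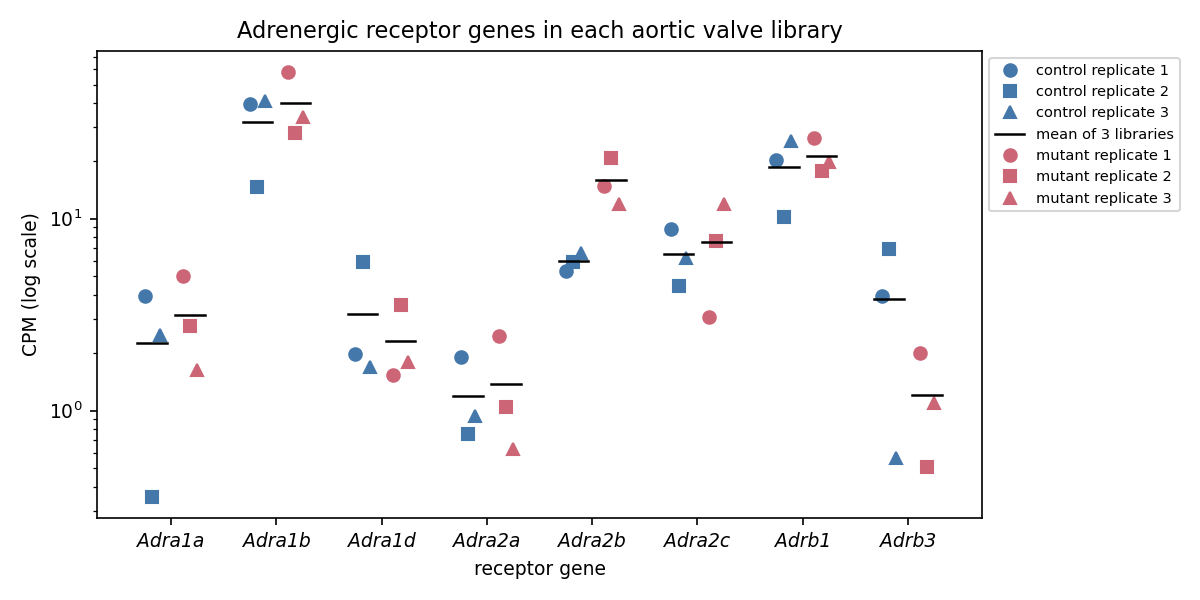
Points give the level of each receptor gene in CPM (y axis, log scale) in each library, in blue for controls and red for mutants, with a marker shape per replicate and a black line at the mean of 3 libraries. Only in Adra2b do the mutants (12.0 to 20.6 CPM) and the controls (5.34 to 6.63 CPM) not overlap.

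Of the alpha-1 receptors, Adra1b, the most abundant receptor gene, was read at 39.7, 14.6 and 41.3 CPM in controls 1, 2 and 3. In mutants 1, 2 and 3 it was read at 58.1, 27.9 and 34.0 CPM. Control replicate 2 lay far below the other controls, and the groups overlapped. For Adra1b the log2 fold change was 0.33 (95% interval -0.69 to 1.35, edgeR adjusted p = 0.999), and it was -0.01 without control replicate 2. Adra1a was read at 3.94, 0.356 and 2.48 CPM in the controls and at 5.04, 2.76 and 1.63 CPM in the mutants. Control replicate 2, with 18 counts, was again the lowest, and the log2 fold change of Adra1a was 0.48 (95% interval -1.40 to 2.36, edgeR adjusted p = 0.999). Without control replicate 2 it was -0.02.

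Adra1d, the alpha-1 receptor typical of arterial smooth muscle, was read at 1.98, 5.93 and 1.70 CPM in controls 1, 2 and 3 and at 1.53, 3.57 and 1.79 CPM in mutants 1, 2 and 3. Control replicate 2 was the highest library and mutant replicate 1 the lowest. For Adra1d the log2 fold change was -0.48 (95% interval -1.86 to 0.90, edgeR adjusted p = 0.999), and 0.32 without control replicate 2. An annotated antisense gene overlaps Adra1d, and another overlaps Adrb3. The library kit is not stated to keep the strand, so that reads of the partners cannot be told apart.

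Of the beta receptors, Adrb1 was read at 20.3, 10.1 and 25.3 CPM in controls 1, 2 and 3 and at 26.2, 17.8 and 19.8 CPM in mutants 1, 2 and 3. The groups overlapped, and its log2 fold change was 0.20 (95% interval -0.58 to 0.98, edgeR adjusted p = 0.999). Without control replicate 2, the lowest library, it was -0.09. Adrb3, the beta receptor of adipocytes, was read at 3.97, 6.96 and 0.565 CPM in the controls and at 1.99, 0.506 and 1.10 CPM in the mutants, on 20 to 352 counts per library. Its controls differed more among themselves than the group means did. For Adrb3 the log2 fold change was -1.67 (95% interval -3.74 to 0.41, edgeR adjusted p = 0.999), and -0.91 without control replicate 2.

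Of the 7 genes other than Adra2b, 0 passed an adjusted p of 0.05 in edgeR, DESeq2 or limma-voom, and 0 had an unadjusted edgeR p under 0.05. Over all 15354 genes tested, the share with an adjusted p under 0.05 in edgeR was 0%, and in DESeq2 it was 0.169%. Of the 7, 5 had a log2 fold change above 0, as had 52.2% of all genes tested, and in all 7 the groups overlapped. Every mutant lay above every control in 4.04% of all genes tested, and below in 4.83%. The intervals of Adra1a and Adra2a pass a log2 fold change of 1 in both directions, and those of Adra1b, Adra1d, Adra2c and Adrb3 pass it in one. In those directions a change of this size was not excluded with 3 libraries a group. For Adrb1 the interval ends just short of 1.

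**Figure D3:**
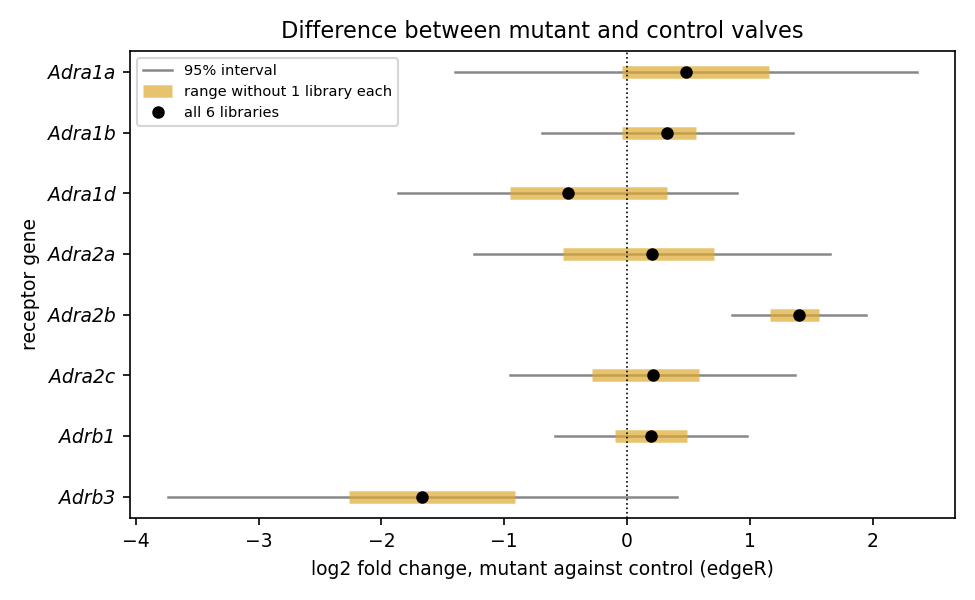
Black points give the log2 fold change of each receptor gene (x axis, mutants against controls), grey lines its 95% interval and yellow bars the range over the 6 fits that each left out 1 library. The Adra2b range is 1.16 to 1.57, above 0 by the choice of the gene, the Adrb3 range is -2.26 to -0.91, and those of the other genes cross 0.

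The receptor genes were set beside marker genes of the cells that a dissected valve can hold. Adra1b and Adrb1 followed the summed cardiomyocyte markers in the order of all 6 libraries, from control replicate 2 through mutant replicates 2 and 3 and control replicates 1 and 3 to mutant replicate 1. The marker sums in that order were 9227, 13537, 19474, 25185, 28824 and 29082 CPM. In control replicate 3 this sum included 12343 CPM of Nppa, against 3429 CPM in control replicate 1. By the mean log2 level of the cardiomyocyte markers, control replicate 3 (11.27) lay just below control replicate 1 (11.29). In Adra1b and Adrb1 these controls stood the other way round, so the full match held for the sum only. With the mean log2 level of these markers as a covariate, and not their sum, the log2 fold changes of Adra1b and Adrb1 were 0.19 and 0.12. That of Adra1d moved from -0.48 to -0.09, that of Adra2a from 0.21 to 0.01 and that of Adrb3 from -1.67 to -1.31. That of Adra1a moved from 0.48 to 0.59, and that of Adra2c was 0.21 in both fits. Adra1d was highest in the library with the highest summed smooth muscle markers (13683 CPM, control replicate 2) and lowest in that with the lowest (3788 CPM, mutant replicate 1). Between these extremes the orders differed, and mutant replicate 2 was second highest in Adra1d but second lowest in the smooth muscle sum. Of the smooth muscle markers, 5 of 6 had a log2 fold change below 0, where 52.2% of all genes tested lay above 0, and 3 of 6 were lower in every mutant, against 4.83% of all genes. Adrb3 was highest in control replicate 2, as were 5 of 6 adipocyte markers, whose sum ran from 297 to 503 CPM in the controls and from 246 to 403 CPM in the mutants. In the other libraries the orders differed, and mutant replicate 3 was second highest in the adipocyte sum but below controls 1 and 2 and mutant 1 in Adrb3. All 6 adipocyte markers, like Adrb3, had a log2 fold change below 0 (median -0.44), with overlapping groups in each. The part of these cell types in the receptor levels was not tested.

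Macrophage markers, like Adra2b, had a higher sum in every mutant, but their order of libraries within each group differed from that of Adra2b. The sum over 4 genes ran from 225 to 262 CPM in the controls and from 294 to 308 CPM in the mutants, and 2 of the 4, C1qa and Cd68, were higher in every mutant, as were 4.04% of all genes tested, while the groups overlapped in the other 2, Emr1 and Mrc1. The log2 fold changes of C1qa and Cd68 were 0.34 and 0.40, against 1.40 for Adra2b. This was the only one of 14 marker lists whose summed level did not overlap between the groups. Of the other 13 lists, the sum for B cells and plasma cells spanned 1.59 to 7.20 CPM in the controls and 5.0 to 24.0 CPM in the mutants, and that for platelets 71.2 to 83.1 and 79.4 to 141 CPM. In both lists 1 gene was higher in every mutant: the plasma cell gene Igj, at 0.218 to 0.578 CPM in the controls and 3.17 to 5.92 CPM in the mutants, with a log2 fold change of 3.36 (SE 0.47), and the platelet gene Pf4, at 59.4 to 61.6 and 71.3 to 100.4 CPM, with 0.49 (SE 0.13). The edgeR adjusted p of Igj and of Pf4 was 0.999. Erythroid markers spanned 576 to 8848 CPM in the controls and 907 to 7558 CPM in the mutants, and 1 of them, Hba-a1, was listed at 0 in control replicate 3 and mutant replicate 3. Endothelial markers spanned 1264 to 2037 and 1494 to 1801 CPM, fibroblast and valve interstitial markers 9435 to 11483 and 9927 to 12857 CPM, pericyte markers 208 to 275 and 186 to 252 CPM, and chondrocyte markers 154 to 364 and 160 to 284 CPM. Melanocyte markers spanned 20.3 to 162 and 61.2 to 182 CPM, Schwann cell markers 28.5 to 40.0 and 29.1 to 47.7 CPM, and sympathetic neuron markers 10.4 to 20.1 and 11.3 to 22.4 CPM, in controls and mutants in turn. The part of these cells in the level of Adra2b was not tested.

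**Figure D4:**
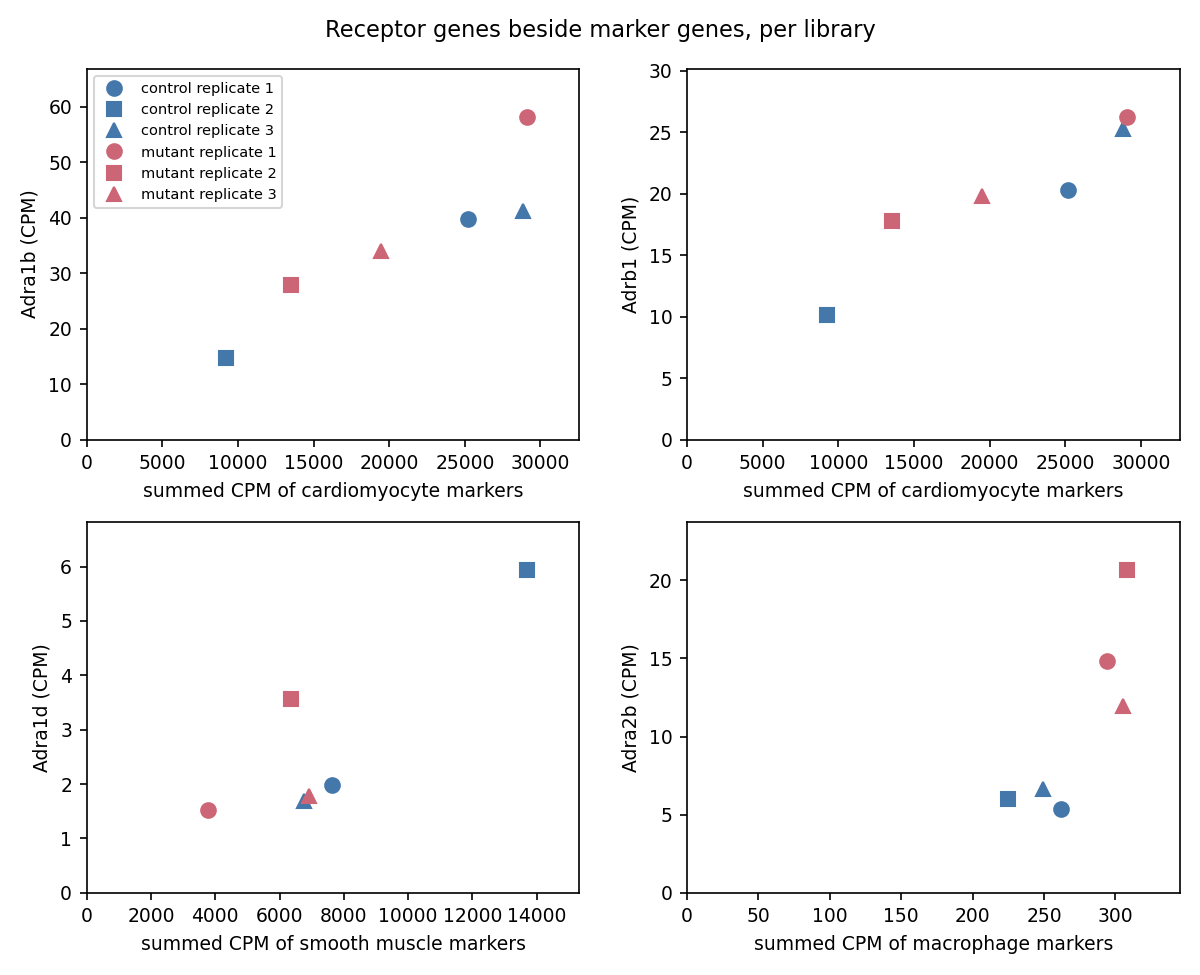
Each panel plots 1 receptor gene (y axis, CPM) against the summed CPM of a marker list (x axis) in the 6 libraries, in blue for controls and red for mutants, with a marker shape per replicate. Adra1b and Adrb1 rise with the cardiomyocyte markers from control replicate 2 (9227 CPM) to mutant replicate 1 (29082 CPM), and in the Adra2b panel the mutants lie above and to the right of the controls.

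The genes next to Adra2b on chromosome 2 were examined as well. The nearest gene with counts at lower coordinates, Astl, had at most 5 counts in any library, too few to test. The nearest at higher coordinates was Gpat2, which encodes a mitochondrial glycerol-3-phosphate acyltransferase and lies 57978 bases beyond the end of Adra2b, from 127425199 to 127436092. Gpat2 was read with 17, 17 and 9 counts in controls 1, 2 and 3 and with 87, 40 and 37 counts in mutants 1, 2 and 3. Its level was 0.317, 0.336 and 0.196 CPM in the controls and 1.68, 1.01 and 1.16 CPM in the mutants, so that every mutant lay above every control. The log2 fold change of Gpat2 was 2.17 (SE 0.44), with a range of 1.93 to 2.32 when single libraries were left out. Its adjusted p was 0.999 in the edgeR test and 0.0199 in DESeq2, and over the other alternatives it ran from 0.790 to 1.00.

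A window of 500 kb on either side of Adra2b, chosen after these values were seen, held 18 other genes tested. Gpat2 was the 1 gene of these that was higher in every mutant, where 4.04% of all genes tested were, and 0 were lower in every mutant. The median log2 fold change of the 18 was 0.05, and without Gpat2 they ran from -0.19 to 0.76. Dusp2, a MAP kinase phosphatase gene on the other side of Adra2b, had a log2 fold change of -0.10 (SE 0.26). Fahd2a and Kcnip3, beyond Gpat2, had log2 fold changes of 0.35 (SE 0.24) and 0.30 (SE 0.22), with overlapping groups.

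**Figure D5:**
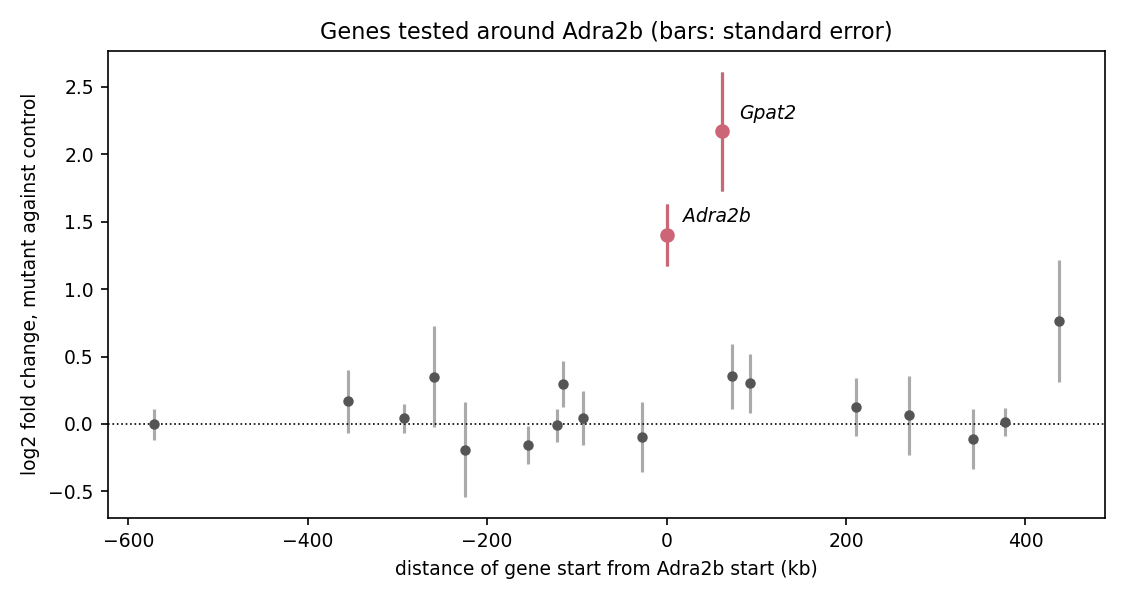
Points give the log2 fold change (y axis, mutants against controls, bars showing the standard error) of each gene tested that has any part within 500 kb of Adra2b, by the distance of its start from that of Adra2b (x axis, kb). Adra2b (1.40) and Gpat2 (2.17) stand above the other 17 genes, which lie between -0.19 and 0.76.

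By Pearson correlation of log2 CPM over the 6 libraries, 4 of the 5 genes most like Adra2b were Palb2 (r = 0.993), Racgap1 (r = 0.992), Ms4a6d (r = 0.980) and Trappc10 (r = 0.973). Since Adra2b separates the groups, genes most like it also do, and these values are a description. Racgap1, which encodes a GTPase-activating protein of cytokinesis, averaged 10.1 ± 1.5 CPM in controls against 19.9 ± 3.88 CPM in mutants (SD, n = 3 each). Ms4a6d, a membrane protein gene of myeloid cells, was read at 9.12 ± 0.488 and 16.8 ± 1.46 CPM (SD, n = 3 each). Palb2, a partner of Brca2 in DNA repair, went from 1.02 ± 0.0778 to 1.84 ± 0.341 CPM (SD, n = 3 each) on 47 to 98 counts per library.

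The genes on either side of the receptors in the pathway were taken from 8 lists, which make ligand, couple to the receptors or respond to cAMP. Of 120 genes tested in these lists, 0 had an adjusted p under 0.05 in edgeR or in DESeq2. At an unadjusted p under 0.05 in edgeR, 1 was higher (0.833%, against 1.59% of all genes tested) and 8 were lower (6.67%, against 1.86%). The median log2 fold change was 0.003 over the 120 and 0.01 over all genes. In 4 genes (3.33%, against 4.04% of all genes tested) every mutant lay above every control and in 5 (4.17%, against 4.83%) every mutant lay below, shares no higher than over all genes. The counts depended on single libraries, and that of lower genes was 3 without control replicate 2 (2.5%, against 1.2% of all genes in the same fit) and 3 without mutant replicate 3 (2.5%, against 1.39%). It was 4 without control replicate 1 (3.33%, against 2.2%) and 5 without mutant replicate 2 (4.17%, against 2.01%). Without control replicate 3 it was 6 (5%, against 1.8%), and without mutant replicate 1 it was 7 (5.83%, against 1.76%). In each of the 6 fits the lower share lay above that of all genes. The count of higher genes was 5 without mutant replicate 2 (4.17%, against 1.62% of all genes in the same fit), 3 without control replicate 1 (2.5%, against 1.92%) and 3 without mutant replicate 1 (2.5%, against 2.18%). In the other fits the count of higher genes was 1 (0.833%), a share below that of all genes. Smooth muscle markers were also lower in the mutants at the median, with a log2 fold change of -0.87 over 6 genes, and their part in these counts was not tested. Gna14 and Plcb1 were among the lower genes in each of the 6 fits that left out 1 library.

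For the ligands, 14 genes of catecholamine synthesis, transport and breakdown were listed, and 12 were tested. In none of the 12 did the groups separate, and their median log2 fold change was 0.06. Th, the rate-limiting enzyme of catecholamine synthesis and a marker of sympathetic nerves, was at 0 to 0.130 CPM and was not tested. Maob, a monoamine oxidase that breaks catecholamines down, averaged 103 ± 16.7 CPM in controls against 107 ± 8.55 CPM in mutants (SD, n = 3 each). Ddc and Pnmt, also of synthesis, had log2 fold changes of 0.85 (SE 0.45) and 1.14 (SE 0.64), and overlapping groups.

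Of 25 G protein subunit genes tested, Gna14 was the 1 whose groups did not overlap, a share of 4% against the 4.83% of all genes that were lower in every mutant. Gna14 encodes a Gq-class alpha subunit. It was read at 1.10, 0.672 and 1.24 CPM in controls 1, 2 and 3 and at 0.251, 0.253 and 0.188 CPM in mutants 1, 2 and 3, on 6 to 59 counts. All mutants lay below all controls, and the log2 fold change of Gna14 was -2.10 (SE 0.45, edgeR adjusted p = 0.999). The far more abundant Gq-class genes Gnaq and Gna11 had values of 0.05 ± 0.17 and -0.01 ± 0.10 on the same scale (± SE). Gnai2, the most abundant of the Gi alpha subunits through which alpha-2 receptors act, averaged 648 ± 21.1 CPM in controls against 625 ± 60.1 CPM in mutants (SD, n = 3 each). Gnas, the Gs alpha subunit, was read at 1633 ± 41.4 and 1620 ± 37.1 CPM (SD, n = 3 each).

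Of the effectors, 9 adenylyl cyclase genes were tested, with a median log2 fold change of -0.19. Adcy4 was higher in every mutant, at 118 ± 8.73 CPM in the controls and 145 ± 24.7 CPM in the mutants (SD, n = 3 each), with a log2 fold change of 0.30 (SE 0.14), and 0.15 without mutant replicate 2. Adcy2 was lower in every mutant, with a log2 fold change of -0.81 (SE 0.31). Each of these was 11.1% of the 9, against 4.04% of all genes higher in every mutant and 4.83% lower. On the Gq side, 13 genes of phospholipase C, IP3 receptors and protein kinase C were tested, with a median of 0.06. Plcb1, a phospholipase C that Gq activates, was read at 28.2, 37.8 and 29.8 CPM in the controls and at 14.7, 24.3 and 20.4 CPM in the mutants. Each mutant lay below each control, and Plcb1 had a log2 fold change of -0.69 (SE 0.21), from -0.86 to -0.51 without 1 library each. It was the 1 gene of the 13 whose groups separated (7.69%, against 4.83% of all genes lower in every mutant). The adjusted p of Adcy4, Adcy2 and Plcb1 was 0.999 in the edgeR test.

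Of 14 genes tested for protein kinase A, its anchors and Epac, 0 separated the groups, and the median log2 fold change was -0.01. Of 21 receptor kinases, arrestins and RGS proteins, which switch receptors or their G proteins off, Rgs19 alone separated the groups. This was 4.76% of the list, against the 4.04% of all genes that were higher in every mutant. Rgs19 had a log2 fold change of 0.15 (SE 0.11), which was 0.08 without mutant replicate 2, and the median of the list was 0.04. Adrbk1, the current Grk2 and the kinase named for the beta receptor, averaged 79.5 ± 6.87 CPM in controls against 87.9 ± 4.58 CPM in mutants (SD, n = 3 each). Of 15 phosphodiesterase genes tested, which degrade cyclic nucleotides, Pde2a and Pde3b were lower in every mutant (13.3%, against 4.83% of all genes) and Pde4b was higher (6.67%, against 4.04%). Their log2 fold changes were -0.59 (SE 0.19), -0.19 (SE 0.10) and 0.16 (SE 0.10), and the median of the list was -0.07. Without control replicate 2 that of Pde3b was -0.13, and without control replicate 1 that of Pde4b was 0.10.

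Of 11 cAMP-responsive genes tested, 7 had a log2 fold change above 0 and 4 below, with a median of 0.12. Nr4a1, an immediate early nuclear receptor gene, was read at 44.4, 42.7 and 42.4 CPM in the controls and at 54.9, 47.5 and 63.8 CPM in the mutants, higher in every mutant. It was the 1 gene of the 11 whose groups separated (9.09%, against 4.04% of all genes higher in every mutant). The log2 fold change of Nr4a1 was 0.36 (SE 0.12, edgeR adjusted p = 0.999). Pck1, a gluconeogenic enzyme also expressed in adipocytes, had a log2 fold change of -1.48 (SE 0.62) and overlapping groups.

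Receptors of the same kind for other amines were counted for comparison. Of 24 muscarinic, dopamine, serotonin, histamine and trace amine receptor genes, 11 had enough counts to be tested. All 8 adrenergic receptor genes described here did, as did 15354 of the 23107 genes counted. Chrm2, the muscarinic receptor of the heart, averaged 27.3 ± 9.27 CPM in controls against 32.3 ± 20.0 CPM in mutants (SD, n = 3 each). Htr2b, a serotonin receptor with a known part in drug-induced valve disease, was read at 9.85, 18.6 and 7.33 CPM in the controls and at 6.85, 11.4 and 6.66 CPM in the mutants. Its groups overlapped, and control replicate 2 was the highest library. Among the 11 tested, every mutant lay below every control in 2, Htr1b and Htr1d (18.2%, against 4.83% of all genes), and above in 0 (against 4.04%). The log2 fold changes of Htr1b and Htr1d were -1.44 (SE 0.58) and -1.90 (SE 0.98), and both genes were at 2.53 CPM or less.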

How the data were processed

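Per the labels and the methods, reads were aligned to mm10 (TopHat2 2.0.13 with Bowtie2 2.2.1 in the processing notes) and quantified with Cuffdiff 2.1.1. The methods name another Bowtie2 version. The authors deposited estimated counts per gene and library, not scaled for library size, which were rounded here. The annotation release is not given in the sources used here.

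The 15354 genes that reached 10 counts in 3 or more libraries were tested in R 4.3.3 with edgeR 4.0.16 (TMM, quasi-likelihood F test, two-sided, mutants against controls, Benjamini-Hochberg over all genes tested). Each standard error is the absolute log2 fold change divided by the square root of F, and 95% intervals came from the same fit. Alternatives used DESeq2 1.42.0 and limma 3.58.1. The pipeline was tested on simulated data. Lengths and positions came from GENCODE M21 (GRCm38), in which 89.6% of symbols matched 1 gene.

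The members and gene lists were chosen with earlier results of these data known. The text names, by rule, all 8 receptors, Acvr1, up to 3 genes per pathway list with the smallest p among those whose groups do not overlap, the neighbours of Adra2b and the 5 genes most correlated with it (log2 of CPM plus 1), of which 4 are described. Further genes were named after their values were seen. 1 further receptor gene of the family is not reported here. The marker lists cover cardiomyocytes, smooth muscle, pericytes, fibroblasts, endothelium, adipocytes, sympathetic neurons, Schwann cells, macrophages, melanocytes, chondrocytes, platelets, B cells and erythroid cells. Counts limit precision, and intervals cover the spread between libraries only.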

Additional observations from a re-analysis of the deposited data

How the results depend on the processing

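The log2 fold change of Adra2b ran from 1.16 to 1.57 over the alternatives, with a direction that the choice of the gene fixes. The count over all genes was 0 in edgeR, 26 in DESeq2 and 529 at an unadjusted p under 0.05, where the pathway lists had 9. At an adjusted p under 0.05 in edgeR, leaving out 1 library at a time gave 0 to 0 genes over all genes, over the other receptors and over the pathway lists. Without control replicate 2 the sign changed in 6 of the 7 other receptor genes, by little in Adra2c (-0.0012), and without mutant replicate 1 it changed in Adra1a, Adra1b and Adra2a, and without mutant replicate 3 in Adra2c. Leaving out 1 library at a time, the log2 fold change ran from -0.038 to 1.16 for Adra1a, -0.043 to 0.56 for Adra1b, -0.95 to 0.32 for Adra1d, -0.52 to 0.71 for Adra2a, -0.28 to 0.59 for Adra2c, -0.094 to 0.49 for Adrb1 and -2.26 to -0.91 for Adrb3. In limma-voom that of Adra2c was -0.067, that of Adra1a 0.98 and that of Adrb1 0.31, and the cause was not tested. Gpat2 passed the threshold in DESeq2 only. Over the longest transcript in place of all exons, Adra1a stood at 0.527 CPM per kb in the controls.

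The replicate numbers in the titles were tried as a block. The deviations of same-numbered libraries 1, 2 and 3 correlated at 0.40, 0.21 and 0.02 across genes. Not every library correlated best with its own number. Control replicate 2 correlated better with mutant replicate 3 (0.24), and control replicate 3 better with mutant replicate 1 (0.10). With the replicate block 0 genes had an adjusted p under 0.05, of the receptors, of the pathway lists and over all genes. The block moved the pathway count at an unadjusted p under 0.05 from 1 higher and 8 lower to 5 higher and 11 lower, and the lower share from 6.67% to 9.17% of the pathway genes and from 1.86% to 2.94% of all genes, the higher share from 0.833% to 4.17% and from 1.59% to 2.36%. With the block the log2 fold change of Adra1a was 0.79, that of Adra2a 0.10 and that of Adra2c 0.10.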
